A study of Mus musculus with 24 samples.

Results

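The contractile and stellate cell genes followed here were 10 protein-coding genes, chosen by name from the 56748 genes of the count table: Acta2, Tagln, Cnn1, Myl9, Tpm2, Des, Pdgfra, Pdgfrb, Vim and Postn. They were measured in 24 RNA sequencing libraries of cultured mouse liver endothelial cells. Cells selected with Cd31 (Cd31+, endothelial cells) or Cd146 (Cd146+, taken as sinusoidal endothelial cells) microbeads came from livers of 3-month-old female C57BL/6 mice, and were transduced with lentivirus 1 week before the RNA was taken. There were 4 constructs with 3 libraries each per population: nc shRNA (a non-coding hairpin), P16 shRNA against P16Ink4a, the empty vector, and P16, which expresses P16Ink4a fused to GFP. The hairpins were carried by the pLKO.1 vector and the other constructs by pLenti-C-mGFP-P2A-Puro, so the control of a hairpin was nc shRNA and the control of P16 was the empty vector. The same mouse strain, culture and viral delivery were common to all 8 groups, and the controls were also transduced. Libraries of a population carry replicate numbers, and what a number stands for is not stated in the sources used here.

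Acta2 encodes alpha smooth muscle actin, the actin of the contractile filament. Tpm2 encodes a tropomyosin that lies along this filament, Myl9 a regulatory light chain of the myosin that pulls on it, and Cnn1 and Tagln encode calponin and transgelin, actin-binding proteins of smooth muscle. Des and Vim encode desmin and vimentin, intermediate filament proteins. Pdgfra and Pdgfrb encode the receptors for platelet-derived growth factors, and Postn encodes periostin, a secreted matrix protein. In the liver, hepatic stellate cells lie beside the sinusoidal endothelium and store vitamin A. When activated they become contractile myofibroblasts that make matrix, and Acta2 is their best known marker. Serum response factor, which binds the CArG box, and TEAD factors, which bind the MCAT element, are known regulators of many contractile genes.

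Because these are genes with known promoter elements, their start site regions were searched. RefSeq promoters of build GRCm38.p6 (250 bases before to 50 bases after the start site, 300 in all) were taken for 8 of the 10 members, all but Tagln and Pdgfrb. Acta2 and Myl9 are shown because each held a match to one of those elements. Capitals mark the match, which is MCAT on the reverse strand in Acta2 (chr19:34255324-34255623, minus strand) and the CArG box in Myl9 (chr2:156775214-156775513, plus strand).
Acta2: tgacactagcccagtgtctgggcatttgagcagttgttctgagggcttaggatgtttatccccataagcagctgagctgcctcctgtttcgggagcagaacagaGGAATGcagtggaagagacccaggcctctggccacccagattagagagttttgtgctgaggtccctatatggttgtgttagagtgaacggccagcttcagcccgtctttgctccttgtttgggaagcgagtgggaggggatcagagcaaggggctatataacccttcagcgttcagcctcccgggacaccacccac
Myl9: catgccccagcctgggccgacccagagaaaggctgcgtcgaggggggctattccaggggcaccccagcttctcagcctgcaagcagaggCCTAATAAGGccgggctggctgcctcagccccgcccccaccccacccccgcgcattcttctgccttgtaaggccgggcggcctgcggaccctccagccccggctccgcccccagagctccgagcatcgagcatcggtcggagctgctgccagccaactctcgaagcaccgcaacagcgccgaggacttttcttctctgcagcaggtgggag
The CArG box was searched as CC, 6 bases that are A or T, and GG, which reads alike on both strands, and was held by 1.63% of 32851 promoters of this length. This search misses a stretch with 1 other base among the 6, such as ccctatatgg or ccttgtttgg in the Acta2 window. The Myl9 match began at position -161 from the start site. CATTCC, the MCAT element, searched on both strands, was held by 14.7% of promoters, and the Acta2 match lay at position -146. TATAAA, held by 13.6% on either strand, was found in the promoters of Vim and, for 1 of its 2 start sites, Postn. GGGCGG, held by 35.7%, was found 3 times in Myl9, 3 times in Tpm2 and 2 times in Des. No match of the CArG box overlapped one of TATAAA in these promoters. The letters describe the windows shown and no more.

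The libraries held 15409767 to 26470392 counts, and the values below are CPM, counts scaled to library size with TMM factors (0.928 to 1.07), unless they are given per length as RPKM, the same value divided by the gene length in kilobases. A count of 3 corresponds to 0.113 to 0.195 CPM, a limit that covers counting error only. The target gene Cdkn2a, which encodes P16Ink4a, stood at 36.7 to 75.6 CPM with nc shRNA and 5.07 to 9.19 with P16 shRNA in Cd31+ cells, and at 95.1 to 194 and 7.70 to 25.3 in Cd146+ cells. With the empty vector it stood at 32.3 to 81.5 CPM and with P16 at 138 to 330.2 in Cd31+ cells, and at 70.4 to 104 and 228 to 832 in Cd146+ cells. Its groups did not overlap in any of the 4 comparisons, and the share of all genes that separated so was not counted. In Cd146+ cells its log2 fold change was -3.21 ± 0.53 with P16 shRNA (SE, adjusted p = 0.36, edgeR). With P16 it was 2.44 ± 0.50 there (adjusted p = 0.99, edgeR). Although the methods give female mice, 16 libraries had Ddx3y, a Y-linked gene, at 52.4 to 168 CPM with Xist at 0 to 0.224 CPM. The other 8, all those of number 5 and those of Cd146+ numbers 4 and 6, had Xist at 322 to 765 CPM and Ddx3y at 0. Number and this split move together, and counts of members called are given with and without a term for it where groups hold both kinds.

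Most of the 17 endothelial markers were present. Pecam1, which encodes CD31, had a mean of 150.4 CPM (4.00 to 283 over the 24 libraries) and Mcam, which encodes CD146, 161 CPM (3.18 to 394). On the same list Cldn5 had a mean of 0.220 CPM with no count in 14 libraries, and Sox17 0.184 CPM with no count in 8. Of the 8 markers of sinusoidal endothelium, Gata4 had a mean of 107 CPM (54.2 to 163) and Stab1 96.5 CPM (3.68 to 429.7). The other 6 had means between 0.0194 CPM (Clec4g) and 4.86 CPM (Mrc1), with Stab2 at 0.440 CPM and Lyve1 at 1.92 CPM. The markers of quiescent stellate cells Lrat (mean 0.0162 CPM, no count in 20 of 24 libraries), Ngfr (0.0360 CPM), Reln (0.102 CPM) and Gfap (0.172 CPM) were at or near 0. Ecm1, also on that list, had a mean of 507.8 CPM. The matrix genes Fn1 (mean 19378 CPM), Col1a1 (10943 CPM) and Sparc (7876 CPM) were among the most abundant transcripts, and 17 such genes summed to 44426 to 100158 CPM. The label "stellate" therefore describes genes, since the defining markers of stellate cells were nearly absent while matrix and contractile genes were high. In bulk RNA, a smaller share of a cell type and less RNA per cell cannot be told apart.

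Per length, Acta2 was the most abundant member, at 1384 ± 517 RPKM (SD, n = 24), and ranked 11 of the 56748 genes. Vim followed at 829 ± 181 RPKM and rank 28. Myl9 had 133 ± 108 RPKM, Tpm2 97.4 ± 64.9, Pdgfrb 60.4 ± 31.9, Postn 40.5 ± 60.2 and Cnn1 39.6 ± 32.1. At the low end were Tagln with 6.81 ± 2.91 RPKM, Pdgfra with 6.63 ± 2.35 and Des with 2.73 ± 4.58. Neighbours in this order overlapped in their ranges over the libraries, with the exception of Vim (486 to 1297 RPKM) and Myl9 (16.2 to 409.6). Tagln, usually abundant where Acta2 is, was thus about as low as Pdgfra. In the GENCODE M21 annotation, 67.9% of the exonic bases of Tagln overlap exons of Gm48529 and Pcsk7 on the other strand, against 6.50% for Pdgfra, 5.86% for Des and 0 for the other 7. How the counting treated reads of overlapping genes is not given in the sources used here, so the Tagln values are uncertain, and the part of this overlap was not tested.

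The family genes gave a scale for these levels. Among the actins, Acta2 made up 35.3% of the summed RPKM means, beside the cytoplasmic actins Actb (1282 ± 159 RPKM) and Actg1 (1206 ± 136). The other muscle actins were lower, with Actg2 at 47.8 ± 61.5 RPKM, Acta1 at 4.44 ± 4.26 and Actc1 at 0.0139 ± 0.0292. Actins are alike in their coding sequence, so reads may be split between them. Tagln was 2.55% of the transgelin sum, which was mostly Tagln2 (260.03 ± 78.6 RPKM). Cnn1 was 8.01% of the calponins, behind Cnn2 (314 ± 59.0) and Cnn3 (140.5 ± 25.2). Myl9 was close to Myl12a (123 ± 27.3), while the near-identical Myl12b had 3.80 ± 1.99, and Tpm2 stood below Tpm1 (270.4 ± 71.1) and Tpm4 (239 ± 54.3) and above Tpm3 (66.8 RPKM). Vim supplied 99.7% of the sum of vimentin, desmin, Gfap and Prph. Of the ligands of both receptors, Pdgfa was highest (27.6 ± 7.42 RPKM), before Pdgfc (6.91 ± 2.74), Pdgfd (5.56 ± 5.26) and Pdgfb (4.43 ± 3.21).

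**Figure D1:**
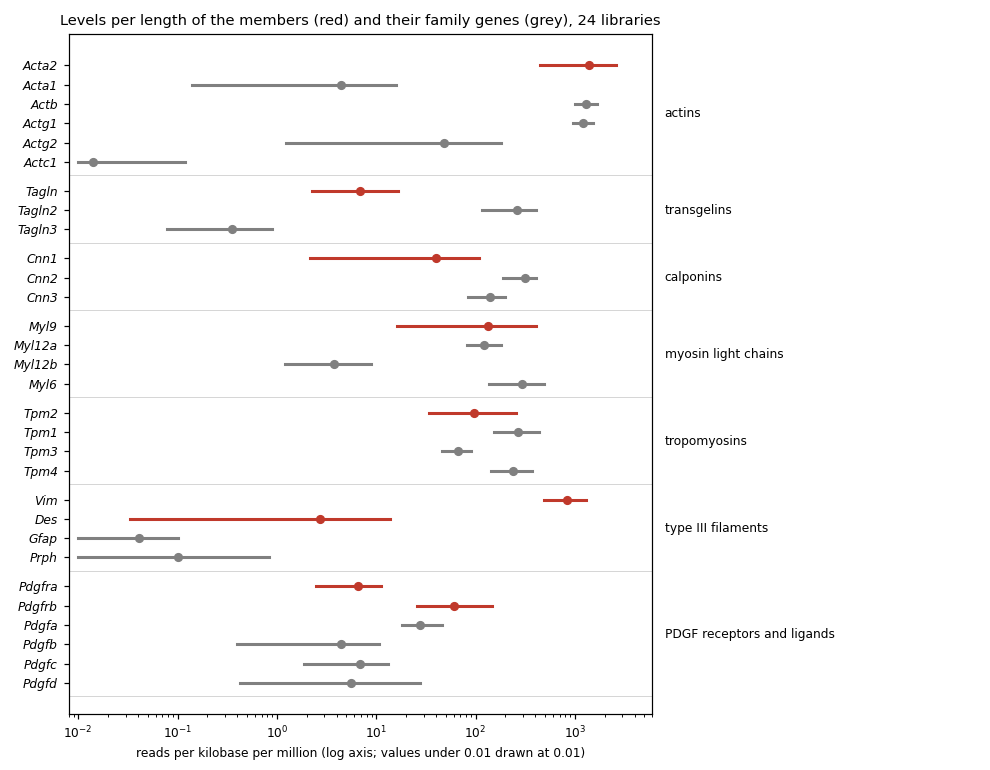
Levels per length in RPKM on a log axis for the members (red) and their family genes (grey), where lines span the lowest to the highest of the 24 libraries and points are means. Acta2 and Vim lie near 1000 RPKM, and the lines of Cnn1, Myl9 and Des span more than those of Cnn2, Myl12a and Vim.

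Most members differed more between replicate numbers than between constructs. Cnn1, of the smooth muscle calponin, was the clearest case in Cd31+ cells. Its 4 libraries of number 2 had 5.94 CPM with nc shRNA, 8.02 with P16 shRNA, 7.08 with the empty vector and 16.1 with P16. Both libraries of number 5 had 222 (empty vector) and 211 CPM (P16). The libraries of number 1 had 149.6, 119 and 174 CPM with nc shRNA, P16 shRNA and the empty vector, and those of number 3 had 69.9, 86.5 and 80.0 CPM with nc shRNA, P16 shRNA and P16. Every number kept its place whatever the construct, and the medians of the numbers lay 28.7-fold apart, against at most 2.72-fold within a number.

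Des, of desmin, showed the same in Cd146+ cells. Number 5 had 39.1 CPM with nc shRNA, 52.0 with P16 shRNA, 46.1 with the empty vector and 50.1 with P16. Number 3 had 0.126, 0.172 and 0.570 CPM with nc shRNA, P16 shRNA and P16, the first from 3 counts. Number 1 had 4.74 and 2.72 CPM, and the single libraries of numbers 2, 4 and 6 had 0.812, 1.54 and 17.4 CPM. In Cd31+ cells Des stayed between 0.390 and 5.54 CPM, number 5 included (2.99 and 3.66 CPM). The 16 macrophage markers moved with number too: they summed to 333 to 438 CPM in the 4 Cd146+ libraries of number 5 and to 20.6 to 212 CPM in the other 8, and their part in the Des values was not tested.

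Pdgfrb ran in a different order from Acta2, Tagln, Cnn1 and Tpm2. In Cd31+ cells it had 398, 406 and 445 CPM in the libraries of number 3 and 139.7 to 235 CPM in the 9 others. In Cd146+ cells it was highest in number 1 (655 with nc shRNA, 808 with P16) and in number 2 (646 CPM, empty vector), and lowest in numbers 4 and 6 (166 and 189 CPM). The library of number 6 had the highest Acta2 (5678 CPM), Tagln (33.2 CPM), Cnn1 (294 CPM) and Tpm2 (736 CPM) of all 24 libraries. Postn rested on 1 library: Cd146+ with the empty vector, number 2, had 2721 CPM, and the next highest of the 24 was 566 CPM.

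As a description, the adjusted share of the variance of log2 CPM (prior count 1) that number and construct took was compared over the 12 libraries of a population. In Cd146+ cells number took 0.584 (Myl9) to 0.961 (Des) of it for the members and construct -0.360 to 0.0155, beside medians of 0.663 and 0.0281 over 16524 genes. There numbers 2, 4 and 6 are single libraries, which a fit by number matches exactly. Number and construct were fitted separately and are not balanced, so their shares are not separate parts of the variance. In Cd31+ cells number took 0.0401 (Vim) to 0.965 (Pdgfrb) and construct -0.336 to 0.510, beside medians of 0.203 and 0.111. Vim was the 1 member in Cd31+ cells with a larger share for construct (0.510) than for number. In each population 9 of the 10 members lay above the median gene in the share of number.

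**Figure D2:**
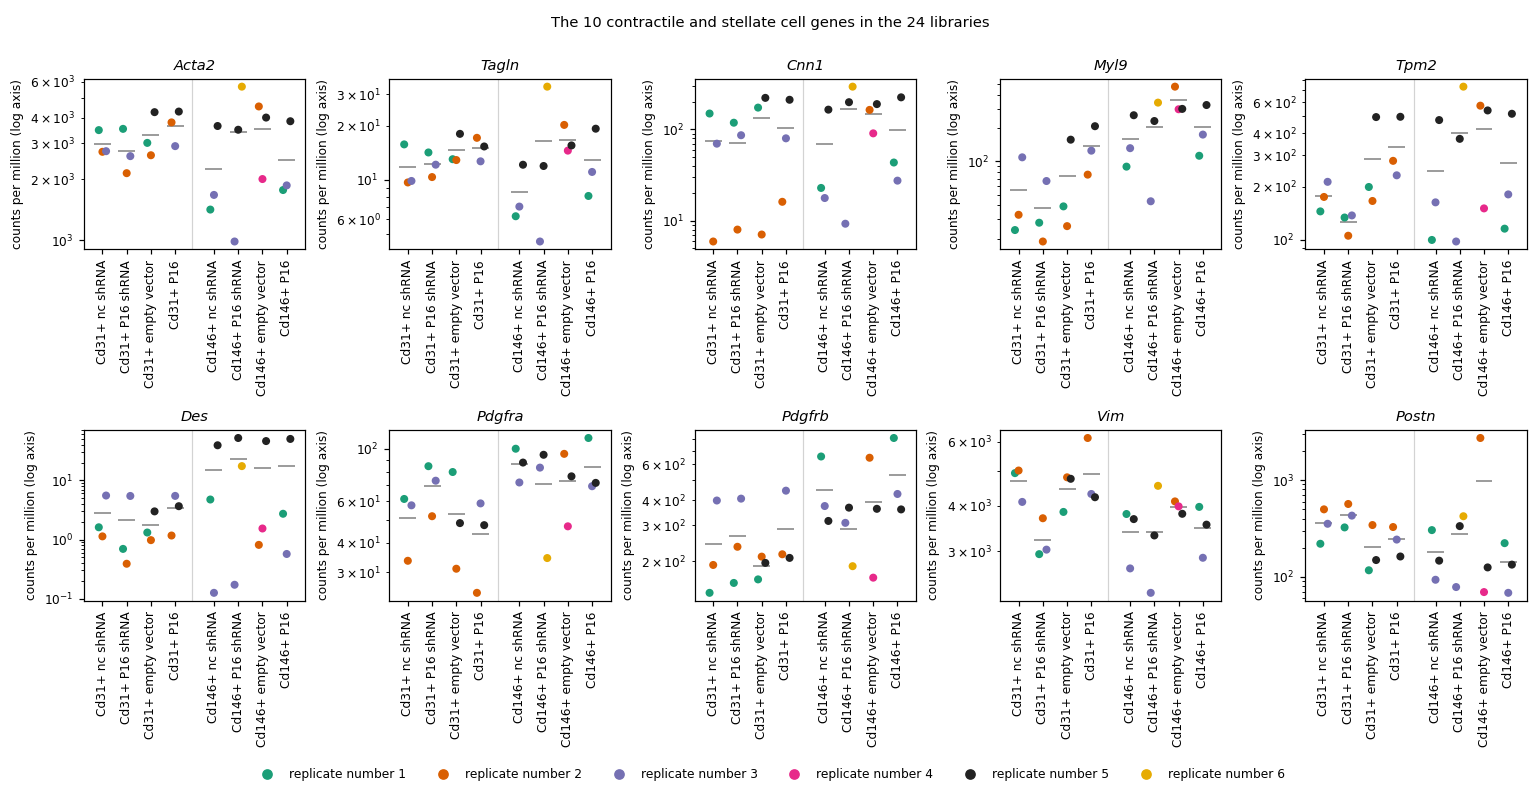
CPM on a log axis of the 10 members in each library by group, with points for libraries coloured by replicate number and grey bars for group means (n = 3). Some numbers keep their place across the constructs of a population, as Cnn1 number 2 in Cd31+ cells (5.94 to 16.1 CPM) and Des number 5 in Cd146+ cells (39.1 to 52.0 CPM). Others change order: Acta2 in Cd31+ cells had number 2 below number 3 with nc shRNA (2720 and 2740 CPM) and above it with P16 (3792 and 2901 CPM).

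Marker lists of other cells moved with number as well, and their part in the members' levels was not tested. The 17 endothelial markers summed to 387 to 2459 CPM over the libraries, with 1706 to 2459 CPM in the 6 libraries of number 5 and 459 to 530 CPM in Cd146+ number 3. The 8 sinusoidal markers summed to 110.2 to 536 CPM and the 13 quiescent stellate markers to 283 to 999 CPM, mostly from Ecm1 (mean 507.8 CPM). The 10 smooth muscle and pericyte markers summed to 137 to 606 CPM, the highest in Cd146+ number 2. The 6 mesothelial markers summed to 131 to 1717 CPM, and their highest libraries, Cd146+ number 3 (1284 to 1717 CPM), were those with the lowest Des among Cd146+ libraries. The 8 portal fibroblast markers summed to 23.8 to 644 CPM and the 6 cholangiocyte markers to 4.70 to 148 CPM. The 8 hepatocyte markers summed to 31.3 to 987 CPM, nearly all from Trf (mean 208 CPM), with Alb at a mean of 0.0742 CPM and no count in 16 libraries. The 6 lymphoid markers summed to at most 0.588 CPM and none was tested.

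**Figure D3:**
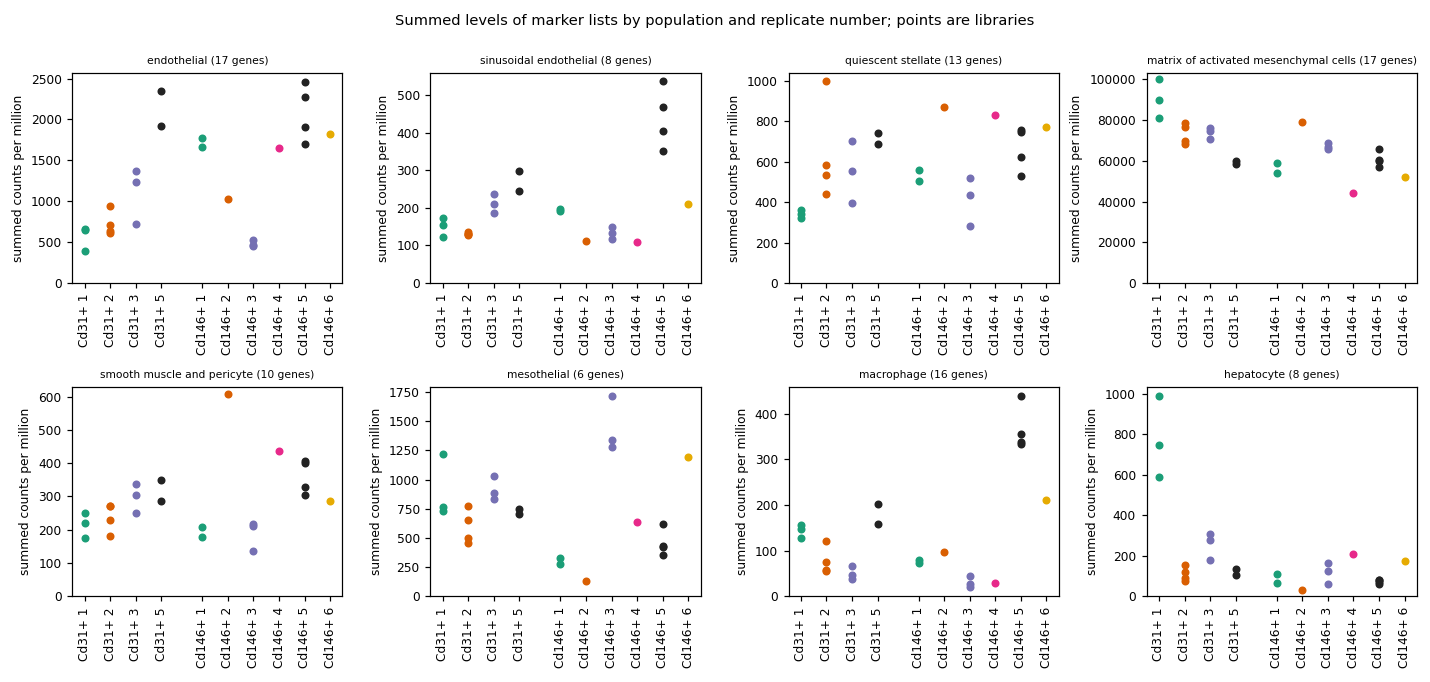
Summed CPM of 8 marker lists (vertical axes, from 0) by population and replicate number, with a point for each library. The macrophage sum is 333 to 438 CPM in Cd146+ number 5, and the mesothelial sum is 1284 to 1717 CPM in Cd146+ number 3. The quiescent stellate sum is mostly Ecm1.

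Silencing of P16Ink4a in Cd31+ cells lowered no member and raised none at an adjusted p under 0.05 in the comparison of 3 libraries with 3 (edgeR quasi-likelihood test, adjusted over 14358 genes, of which 1.30% were called). All 10 members passed the filter on low counts here and in each comparison below. At an unadjusted p under 0.05, 2 members stood out, beside 19.8% of all genes. Vim had 4923, 5005 and 4101 CPM with nc shRNA (numbers 1, 2 and 3) and 2945, 3698 and 3030.2 CPM with P16 shRNA, so that every silenced library lay below every control. The log2 fold change was -0.52 ± 0.15 (SE, adjusted p = 0.13, edgeR). Tpm2 also separated, with 145, 175 and 213 CPM against 134, 105 and 137 CPM, and had a log2 fold change of -0.49 ± 0.17 (adjusted p = 0.18). The other 8 members overlapped between the groups. The share of all genes that separated in this way was not counted, so the separation is a description only. Over the 10 members, 6 fold changes were negative and 4 positive, with a median of -0.09, beside 0.0034 over all genes.

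Within numbers the same comparison gave more calls. With the replicate number as a block over the 6 libraries, 18.8% of the genes were called and 4 members: Vim (-0.52 ± 0.10, adjusted p = 0.0094) and Tpm2 (-0.48 ± 0.12, adjusted p = 0.028) fell, while Pdgfra (0.49 ± 0.10, adjusted p = 0.011) and Postn (0.36 ± 0.10, adjusted p = 0.037) rose (edgeR). Pdgfra, the receptor that marks fibroblasts and stellate cells, had 61.3, 33.6 and 57.6 CPM with nc shRNA and 84.4, 51.8 and 73.3 CPM with P16 shRNA, higher in each of the 3 pairs by log2 ratios of 0.46, 0.63 and 0.35. Postn had 219.7, 498 and 353 CPM against 324, 566 and 429 CPM and was also higher in each pair. Vim fell in each pair, by 0.74, 0.44 and 0.44 on the log2 scale. With the block over all 12 Cd31+ libraries, 16.8% of genes and 3 members were called, and Postn was not (0.35 ± 0.12, adjusted p = 0.073, edgeR).

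The actin gene Acta2 was not called in either fit, with 3475, 2720.1 and 2739.6 CPM against 3525, 2137 and 2591 CPM and a log2 fold change of -0.10 ± 0.21 (adjusted p = 0.83, edgeR). Myl9 was lower in numbers 2 and 3 (log2 ratios of -0.80 and -0.71) and higher in number 1 (0.22), with -0.54 ± 0.72. Des had log2 ratios of -1.21, -1.54 and -0.02 from levels under 6 CPM. Cnn1, Tagln and Pdgfrb had log2 fold changes of -0.08 ± 1.23, 0.07 ± 0.24 and 0.15 ± 0.50.

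Overexpression of P16Ink4a in Cd31+ cells gave 0 called members, beside 0% of 14565 genes at an adjusted p under 0.05 (edgeR). At an unadjusted p under 0.05 there were 0 members as well, beside 3.73% of genes, and DESeq2 called 0 members. With the term for the sex-linked transcripts, 0 members were called, and 1 passed an unadjusted p under 0.05, beside 813 of the 14565 genes (edgeR). Myl9 had 39.1, 25.9 and 157 CPM with the empty vector (numbers 1, 2 and 5) and 75.9, 125 and 209 CPM with P16 (numbers 2, 3 and 5), with a log2 fold change of 0.89 ± 0.74 (adjusted p = 0.95, edgeR), and its groups overlapped. Acta2 had 3008, 2617 and 4257 CPM against 3792, 2901 and 4286 CPM, with 0.16 ± 0.25 (adjusted p = 0.96). In all, 8 members had positive and 2 negative fold changes, with a median of 0.20, beside 0.013 over all genes.

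With number as a block over these 6 libraries, Myl9 was called (0.97 ± 0.22, adjusted p = 0.0068, edgeR), beside 0.632% of genes. This fit rests on the 2 shared numbers, with log2 ratios of 1.55 in number 2 and 0.41 in number 5, and leaves 1 residual degree of freedom. With the block over the 12 Cd31+ libraries, 0 members and 1 gene (0.00648%) were called, and Myl9 had 0.74 ± 0.28 (adjusted p = 0.40). In number 2 the contractile members were higher with P16, by log2 ratios of 0.54 for Acta2, 0.41 for Tagln, 1.19 for Cnn1 and 0.75 for Tpm2. In number 5 the same ratios were 0.01, -0.23, -0.07 and 0.01. The difference between these pairs was not tested.

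In Cd146+ cells the silencing of P16Ink4a gave 0 called members, beside 0% of 15124 genes at an adjusted p under 0.05 (edgeR). At an unadjusted p under 0.05 there were 0 members, beside 11.6% of genes, and DESeq2 called 0 members. The groups do not hold the same numbers, which are 1, 3 and 5 for nc shRNA and 3, 5 and 6 for P16 shRNA. Acta2 had 1417, 1672 and 3641 CPM against 988, 3489.7 and 5678 CPM, in these orders, and a log2 fold change of 0.61 ± 0.66 (adjusted p = 0.72). Tpm2 had 99.8, 163 and 476 CPM against 97.8, 373 and 736 CPM, with 0.73 ± 0.83 (adjusted p = 0.73). Number 6 was the highest library of both genes, and number 3 the lowest with P16 shRNA.

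Within numbers the signs turned. With number as a block over the 12 Cd146+ libraries, Tpm2 fell by 0.53 ± 0.11 on the log2 scale (adjusted p = 0.024, edgeR), the 1 member called beside 8.33% of genes. Its log2 ratios were -0.74 in number 3 and -0.35 in number 5. In the same fit Acta2 had -0.36 ± 0.17 (adjusted p = 0.21), Myl9 -0.82 ± 0.38 (adjusted p = 0.25), Tagln -0.35 ± 0.18 and Cnn1 -0.15 ± 0.31, where the comparison without the block had 0.61, 0.37, 0.98 and 1.31. With the block over the 6 libraries of both groups, 0 members and 0% of genes were called, at 1 residual degree of freedom, and Tpm2 had -0.54 ± 0.15 (adjusted p = 0.22). Without the number 6 library, the unblocked log2 fold changes of Acta2 and Tpm2 were -0.02 and -0.08.

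**Figure D4:**
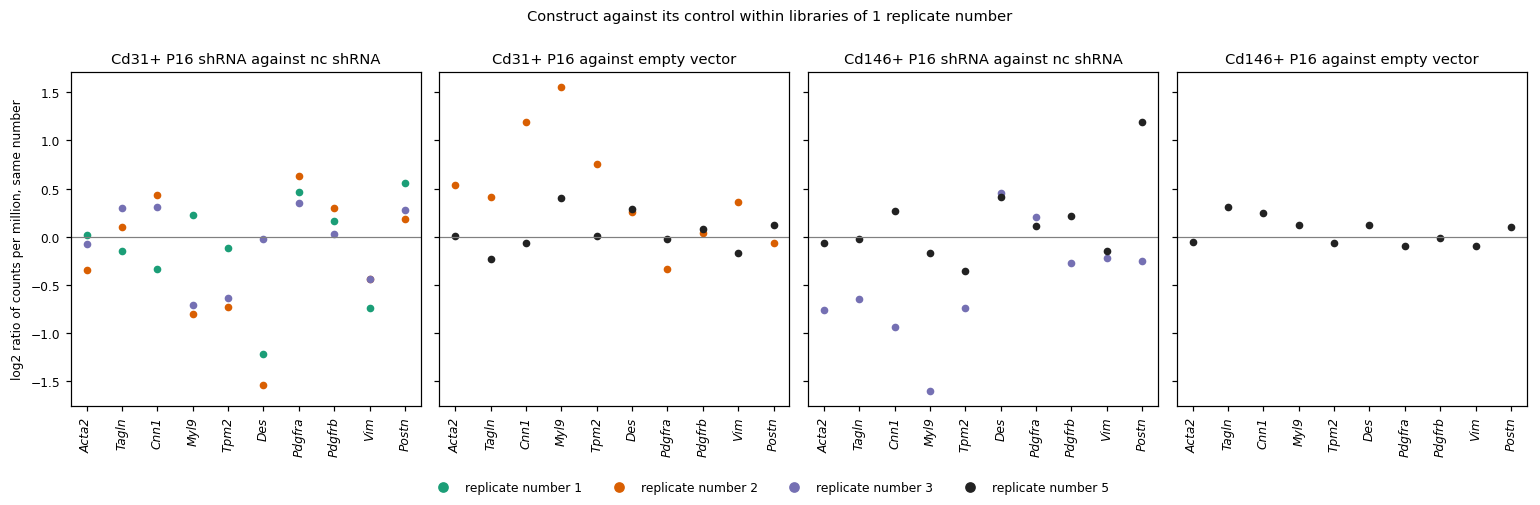
Log2 ratio of CPM of a construct to its control for the 10 members, within libraries of 1 population and replicate number, with a point for each pair coloured by number. The 3 Cd31+ silencing pairs lie below 0 for Vim and above 0 for Pdgfra and Postn, and the single Cd146+ P16 pair lies between -0.10 and 0.31.

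Overexpression of P16Ink4a in Cd146+ cells gave 0 called members, beside 0% of 14860 genes (adjusted p under 0.05, edgeR). At an unadjusted p under 0.05 there were 0 members, beside 3.53% of genes, and DESeq2 called 0. Postn had the largest fold change of the members, -2.74 ± 1.44 (adjusted p = 0.99), with 2721, 69.6 and 125 CPM for the empty vector (numbers 2, 4 and 5) against 223, 68.4 and 134 CPM for P16 (numbers 1, 3 and 5). Without the empty vector library of number 2 the fold change was 0.55. Myl9 had 476, 297 and 299 CPM against 113, 175 and 324 CPM and a log2 fold change of -0.79 ± 0.43 (adjusted p = 0.99). Number 5 alone was shared, and its log2 ratios lay between -0.10 for Vim and 0.31 for Tagln. With the block over the 12 libraries, 0 members and 2 genes (0.0126%) were called, and the fold change of Postn was 0.23 ± 0.41. The empty vector library of number 2 also had the highest sum of smooth muscle and pericyte markers (606 CPM), whose part in its Postn value was not tested.

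Cd146+ cells were compared with Cd31+ cells over all 24 libraries, averaged over the constructs. Myl9, the regulatory myosin light chain, was higher in Cd146+ cells (log2 fold change 1.71 ± 0.39, adjusted p = 0.019, edgeR), the 1 member called beside 6.61% of 16524 genes. Its lowest, median and highest libraries were 43.5, 247 and 476 CPM in Cd146+ cells and 18.8, 52.8 and 209 CPM in Cd31+ cells. The ranges overlapped. The libraries of a number are not independent, and the call was lost when the counts were summed per population and number (4 sums against 6, 1.63 ± 0.60, adjusted p = 0.90). It was also lost in limma voom with the correlation of 0.655 within population and number (1.76 ± 0.51, adjusted p = 0.38), and with the 12 control libraries only (1.91 ± 0.53, adjusted p = 0.19, edgeR). With the term for the sex-linked transcripts Myl9 had 1.35 ± 0.33 (adjusted p = 0.027).

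At an unadjusted p under 0.05 there were 5 members between the populations, beside 25.0% of genes. Besides Myl9 these were Pdgfrb (0.73 ± 0.25, adjusted p = 0.083), Pdgfra (0.54 ± 0.20, adjusted p = 0.10), Des (2.83 ± 0.93, adjusted p = 0.072) and Vim (-0.26 ± 0.11, adjusted p = 0.14, edgeR). Pdgfrb ran from 166 to 808 CPM in Cd146+ cells (median 364) and from 139.7 to 445 CPM in Cd31+ cells (median 209). Des, which was high in Cd146+ number 5, had 0.11 ± 0.95 with the term for the sex-linked transcripts. With that term 2 members were called, Myl9 and Pdgfrb (0.89 ± 0.24, adjusted p = 0.037). Acta2 had -0.14 ± 0.24, with medians of 2745 CPM in Cd146+ and 2955 CPM in Cd31+ cells.

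**Figure D5:**
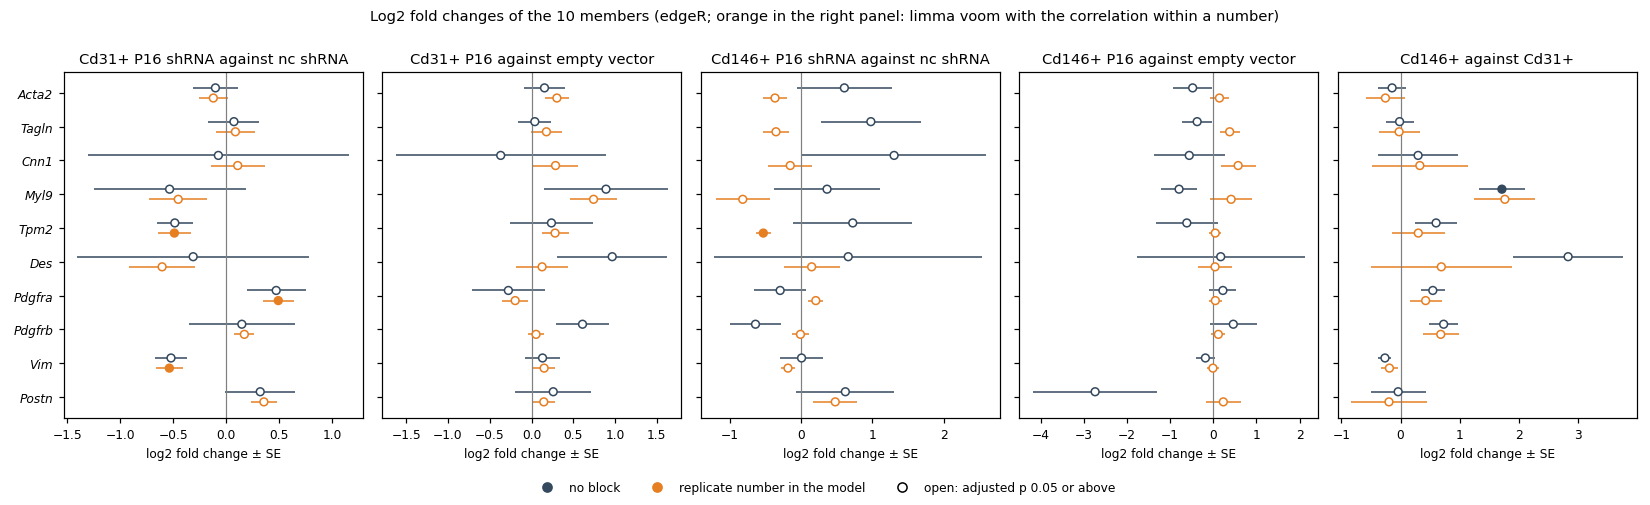
Log2 fold changes of the 10 members with SE in the 5 comparisons, from edgeR without a block (blue) and with the replicate number in the model (orange: a block over the 12 libraries of a population, or limma voom in the last panel), filled where the adjusted p is under 0.05. Tpm2 in the Cd146+ silencing moves from 0.73 to -0.53, and Postn in the Cd146+ overexpression from -2.74 to 0.23.

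Whether the effect of a construct differed between the populations was tested as an interaction over the 24 libraries. For P16 shRNA, 0 members were called, beside 0% of genes at an adjusted p under 0.05, and 0 members beside 1.20% of genes at an unadjusted p under 0.05 (edgeR; DESeq2 called 0). For P16, 0 members were called beside 0% of genes, and at an unadjusted p under 0.05 there was 1 member, Postn, beside 3.82% of genes (-3.02 ± 1.35, adjusted p = 0.99; DESeq2 called 0). The Postn difference rests on the Cd146+ empty vector library of number 2, and with number as a block within each population it was 0.09 ± 0.37.

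The wider contractile machinery was followed in a list of 39 other genes of actin filaments, myosin and targets of serum response factor, of which 37 were tested. Its most abundant genes per length were Actb (1282 RPKM), Actg1 (1206 RPKM) and Cnn2 (314 RPKM). In the Cd31+ silencing 0 passed an adjusted p under 0.05 (edgeR), 27 fold changes were negative and 10 positive, and the median was -0.23, beside 0.0034 over all genes. With number as a block over the 12 libraries, 8 fell and 2 rose of the 37, beside 16.8% of all genes called in either direction. In the Cd146+ silencing this block gave 4 that fell and 1 that rose, beside 8.33% of all genes, with a median of -0.24. In both overexpressions it gave 0. With the block over 6 libraries, 10 fell and 1 rose in the Cd31+ silencing (18.8% of all genes) and 0 passed in the Cd146+ silencing. In the Cd31+ overexpression that block called 1 gene of the list (0.632% of all genes), Myh11, the smooth muscle myosin heavy chain (1.29 ± 0.24, adjusted p = 0.00017, edgeR), at 1 residual degree of freedom. Between the populations, 6.61% of all genes were called in either direction. Mylk, the myosin light chain kinase, was higher in Cd146+ cells (1.37 ± 0.34, adjusted p = 0.025). The filamin gene Flna (-0.27 ± 0.08, adjusted p = 0.045) and the non-muscle myosin heavy chains Myh9 (-0.28 ± 0.08, adjusted p = 0.036) and Myh10 (-0.60 ± 0.17, adjusted p = 0.042) were lower. None of these 4 calls held in limma voom with the correlation within a number (adjusted p = 0.62 for Mylk, 0.55 for Flna, 0.58 for Myh9 and 0.52 for Myh10), with summed counts or with control constructs only.

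Of the 11 genes of PDGF ligands and signalling, all tested, 0 were called without a block in any of these 5 comparisons (edgeR). Their medians lay between -0.10 in the Cd31+ silencing and 0.09 between the populations, beside 0.0034 and 0.017 over all genes, and their most abundant members per length were Ptpn11 (37.9 RPKM), Shc1 (36.9 RPKM) and Grb2 (31.8 RPKM), which carry the receptor signal. Of the 6 other intermediate filament genes and their partners, 5 were tested, with Lmna (135 RPKM), Plec (36.8 RPKM) and Lmnb1 (22.1 RPKM) the most abundant. Plec, of the linker protein plectin, fell with P16 shRNA in Cd31+ cells (-1.18 ± 0.18, adjusted p = 0.036, edgeR), in the comparison in which Vim was lower. In the Cd146+ silencing, where Vim was not called, the block over the 12 libraries gave a fall of Plec (-1.07 ± 0.12, adjusted p = 0.0033, edgeR). Lmna fell there too (-0.34 ± 0.09, adjusted p = 0.049), beside 8.33% of all genes called. Without the block 0% of genes were called in that comparison. Between the populations Plec (-0.49 ± 0.10, adjusted p = 0.011) and Lmna (-0.37 ± 0.10, adjusted p = 0.041) were lower in Cd146+ cells, beside 6.61% of all genes called. Both calls were lost in limma voom with the correlation within a number (adjusted p = 0.44 and 0.60), with summed counts and with control constructs only.

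The cell type lists had no called gene in the 4 construct comparisons without a block (edgeR), and their medians in the Cd31+ silencing were -0.35 for the endothelial, -0.17 for the sinusoidal, 0.09 for the quiescent stellate, 0.09 for the matrix, -0.24 for the smooth muscle and 0.47 for the mesothelial list. With number as a block over the 12 libraries, genes of these lists were called in the Cd146+ silencing, beside 8.33% of all genes (edgeR). Lrrn4 (1.27 ± 0.13), Lum (2.13 ± 0.28), Dpt (1.69 ± 0.28) and Col3a1 (0.72 ± 0.15) rose. Ecm1 (-0.54 ± 0.11) and Lyz2 (-1.11 ± 0.19) fell, with adjusted p from 0.0024 to 0.021 for these genes. With the block over 6 libraries 0% of genes were called there. Blocked fits of these lists in Cd31+ cells are not given here. Between the populations, 6.61% of all 16524 genes tested were called (edgeR). Of these lists, Hhip of the quiescent stellate list was called (2.71 ± 0.77, mean 0.185 CPM). Kcnj8 of the pericyte list was called too (4.51 ± 1.22, no count in 10 libraries and at most 42.9 CPM). So were Tnc (1.21 ± 0.33) and Fn1 (-0.61 ± 0.11) of the matrix list. Thy1 (2.80 ± 0.72) and Pi16 (1.99 ± 0.59) of the portal fibroblast list were higher in Cd146+ cells, and Upk1b of the mesothelial list was lower (-1.66 ± 0.33). In limma voom with the correlation within a number none of these 7 was called (adjusted p = 0.66 for Hhip, 0.70 for Kcnj8, 0.54 for Tnc, 0.44 for Fn1, 0.40 for Thy1, 0.64 for Pi16 and 0.32 for Upk1b). None was called with summed counts or with control constructs only, where Kcnj8, and with summed counts also Hhip, did not pass the filter on low counts. The endothelial, sinusoidal, macrophage, hepatocyte, cholangiocyte and sex-linked lists had 0 called genes there.

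Across the 24 libraries, log2 CPM of Acta2 and Tagln had a Pearson r of 0.90, and Acta2 and Tpm2 of 0.82. Acta2 and Pdgfrb had -0.33, and Pdgfra and Vim -0.65. Pdgfrb had -0.38 with Tagln, -0.07 with Cnn1, -0.04 with Tpm2 and 0.40 with Myl9. These describe libraries that share numbers. The 5 genes outside the list most like Acta2, among 13406 genes with a mean of at least 1 CPM, were Khdrbs3 (r = 0.89), Tpm1 (0.89), Krt14 (0.87), Cib2 (0.87) and Acta1 (0.87), and reads of Acta1 may come from Acta2. The 5 most like Pdgfrb were Arhgap20 (r = 0.90), Rasa3 (0.88), Cndp2 (0.88), Nkd2 (0.86) and Mark1 (0.85).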

How the data were processed

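Poly-A RNA of the 24 libraries was sequenced by the authors' provider, and the authors deposited raw read counts per gene with gene lengths. The submitters' processing notes name fastp and the build mm9, while the aligner and the counter are not given in the sources used here. The coordinates listed for the genes differ from those of GENCODE M21 for most members, so only RefSeq GRCm38.p6 promoter coordinates are printed. Counts were analysed in R 4.3.3 with edgeR 4.0.16 (filterByExpr with a minimum count of 10, TMM, robust quasi-likelihood test, Benjamini-Hochberg adjustment over all genes tested, threshold 0.05). Construct comparisons used the 6 libraries concerned, and the population comparison and the interactions all 24. DESeq2 1.42.0 and limma 3.58.1 were alternatives, and a term for sex-linked transcripts was chosen after seeing the data. RPKM was computed from the deposited counts and lengths. Scripts were tested on simulated data.

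The named genes were all members, Cdkn2a, called or most abundant genes of 15 lists, the members' families, and the 5 genes most like Acta2 and like Pdgfrb. Marker values of other genes are descriptions chosen after their values were seen. The members and lists were chosen with earlier results of these data known. Nothing states that libraries came from separate animals, so p-values measure the spread between these libraries, which may be technical. In groups that hold both libraries with Xist and libraries with Ddx3y, such as Cd31+ empty vector, the spread also holds this difference.

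Same-numbered libraries deviated together from their group means within a population. In Cd31+ cells 13 pairs had correlations with a median of 0.496 and a lowest value of 0.332, and the 41 other pairs a median of -0.163. In Cd146+ cells 10 pairs had a median of 0.692 and a lowest value of 0.377, and the 44 others a median of -0.0722. The numbers were therefore taken to pair libraries within a population, from the data and not from a label.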

Additional observations from a re-analysis of the deposited data

How the results depend on the processing

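The number of members called depended on the fit. For P16 shRNA in Cd31+ cells, 0 became 3 with all genes of at least 1 count, 1 with the DESeq2 Wald test, 3 with the replicate block over the 12 libraries and 4 with the block over the 6. For P16 in Cd31+ cells the block over the 6 libraries gave 1, and for P16 shRNA in Cd146+ cells the block over the 12 gave 1. Between the populations, 1 became 0 with all genes, with control constructs only, with summed counts and with limma voom, 3 with the DESeq2 Wald test, 2 with the sex-linked term and 1 to 2 when 1 library was left out (2 without Cd31+ nc shRNA replicate 3, Cd146+ P16 shRNA replicate 3 or Cd146+ empty vector replicate 4). Other leave-one-out counts of members stayed at 0. The replicate block over the 24 libraries gave 4, but numbers were not taken to pair populations (27 same-numbered pairs, median correlation 0.103, lowest -0.0462, against -0.0105 for 117 others). The block within Cd146+ P16 over 6 libraries was not run, since 1 number is shared. The block changed no other call of a member. With the sex-linked term, 0 members and 0 genes were called for P16 in Cd31+ cells and in both Cd146+ construct comparisons (edgeR). The same held for both interactions.

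Counts of all genes called moved as well. For P16 shRNA in Cd31+ cells, 186 became 1294 (all genes), 1103 (DESeq2 Wald), 373 (one fit over 12 libraries), 2586 (block, 12 libraries), 2703 (block, 6 libraries) and 0 to 64 with 1 library left out. For P16 in Cd31+ cells, 0 became 10, 4, 0, 1 and 92 in the same order. For P16 shRNA in Cd146+ cells, 0 became 19, 333, 11, 1326 and 0, and for P16 in Cd146+ cells 0, 1, 0 and 2. Between the populations 1093 became 431 (all genes), 2042 (DESeq2 Wald), 1863 (block), 0 (controls only), 0 (sums), 3 (voom) and 432 to 1650 with 1 library left out. The interaction with P16 gave 3 (DESeq2 Wald), 13 (block) and 0 to 12 with 1 library left out.

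Log2 fold changes that turned their sign were, with the block over 12 libraries and then over 6, Cnn1 for P16 shRNA in Cd31+ cells (0.11, 0.10) and for P16 (0.29, 0.51). For P16 shRNA in Cd146+ cells these were, with the sex-linked term last, Acta2 (-0.36, -0.41, -0.14), Cnn1 (-0.15, -0.28, -0.24), Myl9 (-0.82, -0.87, -0.59), Tpm2 (-0.53, -0.54, -0.087) and Vim (-0.18, -0.18, -0.19), with Tagln (-0.35, -0.32) and Pdgfra (0.21, 0.16) under the blocks and Des (-1.34) under the term. For P16 in Cd146+ cells the block gave Acta2 0.14, Tagln 0.38, Cnn1 0.58, Myl9 0.41, Tpm2 0.047 and Postn 0.23. Between the populations Tagln had 0.00080 (DESeq2 size factors), 0.00079 (DESeq2 Wald) and 0.25 (sums), Cnn1 -0.64 (sex-linked term), -0.27 (block) and -0.0025 (controls only), and Postn 0.23 (sex-linked term), 0.14 (block), 0.64 (controls only) and 1.13 (sums). The cause was not tested.

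Leaving out 1 library turned the sign of these values, given as ranges. For P16 shRNA in Cd31+ cells they were Acta2 -0.33 to 0.046, Tagln -0.075 to 0.33, Cnn1 -0.67 to 0.90, Myl9 -1.23 to 0.43, Des -2.32 to 0.70 and Pdgfrb -0.30 to 0.70. For P16 in Cd31+ cells they were Tagln -0.054 to 0.21, Cnn1 -1.48 to 0.20, Tpm2 -0.17 to 0.88, Pdgfra -0.55 to 0.14, Vim -0.054 to 0.22 and Postn -0.018 to 0.88. For P16 shRNA in Cd146+ cells they were Acta2 -0.021 to 1.14, Tagln -0.064 to 1.42, Myl9 -0.24 to 0.90, Tpm2 -0.082 to 1.63, Des -0.70 to 3.25, Pdgfra -0.54 to 0.0044 and Vim -0.30 to 0.22. For P16 in Cd146+ cells they were Des -3.29 to 3.95, Pdgfra -0.043 to 0.45 and Postn -3.29 to 0.55. Between the populations they were Tagln -0.27 to 0.093, Cnn1 -0.12 to 0.60 and Postn -0.86 to 0.12. Des rests on 3 counts in its lowest library, so its small values are limited by depth.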
